A study of Mus musculus with 16 samples.

Results

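The Zfp genes of the mouse are the genes whose symbol is Zfp followed by a number, and most of them encode proteins built from C2H2 zinc fingers. In the deposited table of left ventricular (LV) RNA, 232 of 11811 rows carried such a symbol, and 230 of them, with a mean FPKM of 0.5 or more across the 16 libraries, were tested. FPKM corrects fragment numbers for transcript length and for how many fragments a library had mapped, so levels of different genes can be compared per length. LV RNA was taken from 8 TGAC8 mice and 8 WT mice, all males aged 3 months with the C57BL/6 background, with 1 total RNA library from each mouse. In TGAC8 mice the murine α-myosin heavy chain promoter drives a human ADCY8 cDNA in cardiac myocytes, and its product is an enzyme that makes cAMP. The tissue was the LV free wall without the septum, so myocytes and all other cells of the wall contributed RNA.

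A C2H2 finger is a short loop in which 2 cysteines and 2 histidines hold a zinc ion, and arrays of such fingers read DNA bases in order. Many members also carry a KRAB box, which recruits the corepressor TRIM28 and, through it, histone methylation and DNA methylation to the bound site. KRAB zinc finger genes lie in arrays that arose by tandem duplication, and many of them silence retroviral elements. Other members do different work. Some are activators, some bind RNA, some are ubiquitin or SUMO ligases, and the symbol itself only records that a zinc finger was noticed in the sequence.

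The fingers of 5 members whose level differed between the genotypes are shown first, because they are the sequence that gives the family its name. Each stretch holds 1 whole finger and the linker after it, taken from GENCODE vM21 coding sequences on mm10. Capitals mark the codons of the 2 cysteines and 2 histidines, and the last 15 bases of each stretch encode the linker TGEKP.
Zfp970 (chr2:177475115-177475192, plus strand, exon 4): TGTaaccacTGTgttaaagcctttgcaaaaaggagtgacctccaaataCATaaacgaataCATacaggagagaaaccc
Zfp180 (chr7:24105115-24105192, plus strand, exon 5): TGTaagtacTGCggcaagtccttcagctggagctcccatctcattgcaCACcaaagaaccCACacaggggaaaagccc
Zfp790 (chr7:29828567-29828644, plus strand, exon 5): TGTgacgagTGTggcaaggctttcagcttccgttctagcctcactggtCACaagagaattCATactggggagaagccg
Zfp386 (chr12:116059804-116059881, plus strand, exon 3): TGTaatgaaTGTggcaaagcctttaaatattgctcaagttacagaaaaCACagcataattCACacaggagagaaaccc
Zfp91 (chr19:12771008-12771085, minus strand, exon 10): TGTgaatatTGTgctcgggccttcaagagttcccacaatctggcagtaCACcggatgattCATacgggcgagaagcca

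The 5 stretches were 51.3 to 66.7% identical over their 78 bases. The lowest identity was between Zfp970 and Zfp91 and the highest between Zfp180 and Zfp790. Because fingers of different genes resemble each other, short reads may fit more than 1 gene. Of all windows of 75 bases, the read length, in GENCODE vM21 transcripts of each member, a median of 0.0844% also occurred in transcripts of another gene. In 36 of the 232 members over 10% of windows were shared, and in 5 over 50%. Exons of 65 members overlapped exons of another gene, and the sources used here do not say whether the counting used strand.

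On the scale of the deposited FPKM the Zfp genes as a family had nearly the same median fold change as the LV transcriptome. Their median log2 fold change, TGAC8 over WT, was 0.12, and the median over all 11544 tested rows was also 0.12. The family shift, the first median minus the second, was -0.0028. A positive median over all rows depends on how libraries are brought to 1 scale. After geometric scaling, which divides a library by the median, over rows, of its ratios to the geometric mean of the 16 libraries, the medians were 0.0077 for the members and 0.0079 for all rows, and the family shift was -0.0002. After quantile normalization, which gives every library the same distribution of values, the family shift was -0.041. Changes of single members are therefore given on the deposited scale and again after geometric scaling wherever that ended a call.

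The fold changes of the members lay around that median. The middle 50% of members lay between 0.013 and 0.24 on the log2 fold change scale, and the middle 50% of all tested rows between -0.0098 and 0.26. The SD of the log2 fold changes was 0.197 over the members and 0.422 over all rows. A log2 fold change above 0 was seen in 175 members, or 76.1%, and in 73.4% of all tested rows, and after geometric scaling in 120 members. The lowest value among the members was -0.46 and the highest 0.91.

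In single libraries the same comparison can be made without averaging over mice. For each library the median over members, each relative to its own mean over the 16 libraries, was set against the same median over all rows. The differences ran from -0.045 to 0.043 in the 8 TGAC8 libraries, with a median of 0.021, and from -0.047 to 0.029 in the 8 WT libraries, with a median of -0.00028. The genotypes overlapped over most of that range.

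**Figure D1:**
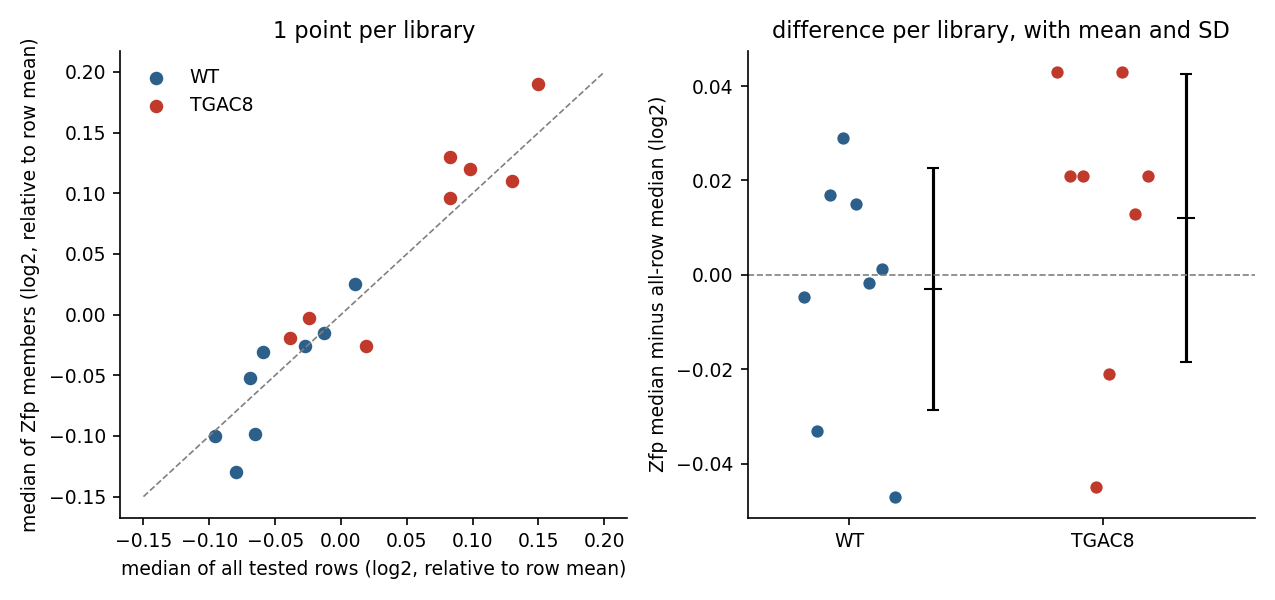
Left, median log2 level of the Zfp members (vertical axis) against the median of all tested rows (horizontal axis) in each of the 16 libraries, both relative to each row's mean, with the line of equality dashed. Right, the difference of the medians per library for WT and TGAC8, with mean and SD as bars. The points follow the line of equality, and the differences of both genotypes lie between -0.047 and 0.043.

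The members were low abundance transcripts. Their median level was 1.68 FPKM, with a middle 50% from 0.991 to 3.06 FPKM, while all tested rows had a median of 3.98 FPKM and a middle 50% from 1.72 to 9.98 FPKM. Together the 232 members made up 0.193 to 0.225% of the summed FPKM in TGAC8 (0.209% ± 0.0105, SD, n = 8) and 0.155 to 0.190% in WT (0.173% ± 0.0103, SD, n = 8). Every TGAC8 library lay above every WT library in that share. The summed FPKM of the members ran from 658 to 759 in TGAC8 and from 624 to 679 in WT. The summed FPKM of all rows, which is the divisor of the share, ran from 314283 to 374087 in TGAC8 and from 356854 to 407506 in WT.

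The family has 1 member that stands far above the others. Zfp106, an RNA-binding protein needed for motor neuron and muscle maintenance in mice, had a mean of 93.0 FPKM and ranked 386 among the 11544 tested rows. Next came Zfp91 at 19.1 FPKM, Zfp651 at 14.4 FPKM, Zfp207 at 14.3 FPKM and Zfp652 at 13 FPKM. In all, 25 members reached a mean of 5 FPKM. At the other end, Zfp2 with a mean of 0.585 FPKM and Zfp954 with 0.593 FPKM were just above the minimum for testing, and Zfp972 with 0.246 FPKM and Zfp488 with 0.0024 FPKM were below it.

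Individual Zfp genes were tested together with all other rows with limma on log2(FPKM + 0.1), 2-sided, with Benjamini-Hochberg adjustment over 11544 rows and a threshold of 0.05. In TGAC8, 34 members rose and 2 fell. This was 14.8% and 0.87% of the 230 tested members, and the same test called 20.9% of all tested rows higher and 4.65% lower, or 25.6% in either direction. Of the 230 members, 4 were called and differed by at least 1.5-fold, as did 605 of all 11544 tested rows. At an unadjusted p under 0.05 there were 56 members higher and 4 lower. Of all 11544 tested rows, 4336 had such a p in either direction. The exact rank-sum test with the same adjustment called 33 members higher and 2 lower, and its share over all rows is not given here.

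**Figure D2:**
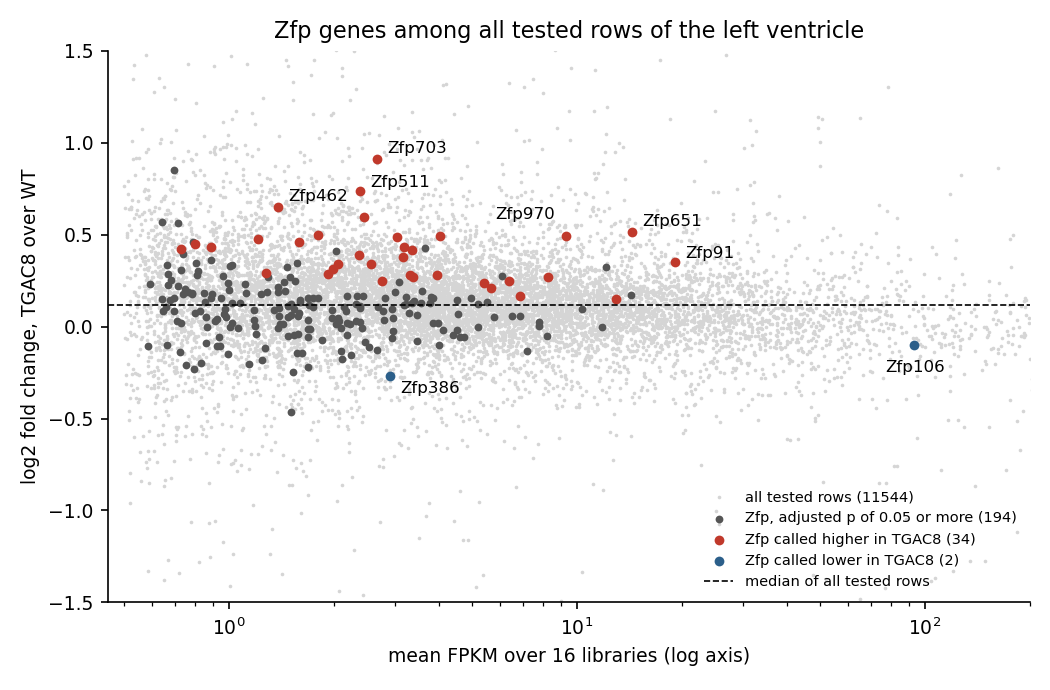
Log2 fold change, TGAC8 over WT (vertical axis), against mean FPKM over 16 libraries (horizontal log axis) for all 11544 tested rows in light grey, with the 230 tested Zfp members over them in dark grey (not called), red (34 higher) and blue (2 lower). The dashed line is the median of all tested rows, 0.12, and 332 rows, none of them Zfp members, fall outside the axes.

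After geometric scaling 14 members were higher and 7 lower, against 9.78% of all tested rows higher and 10.7% lower on that scale. All 14 higher members and both members that fell on the deposited scale were called in the same direction on both scales. The other 20 increases were called on the deposited scale only. Quantile normalization called 10 members higher and 8 lower, against 9.16% and 9.14% of all tested rows. The 5 further decreases after geometric scaling were Zfp738, Zfp945, Zfp422, Zfp148 and Zfp644, which are named here after their values were seen.

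**Figure D3:**
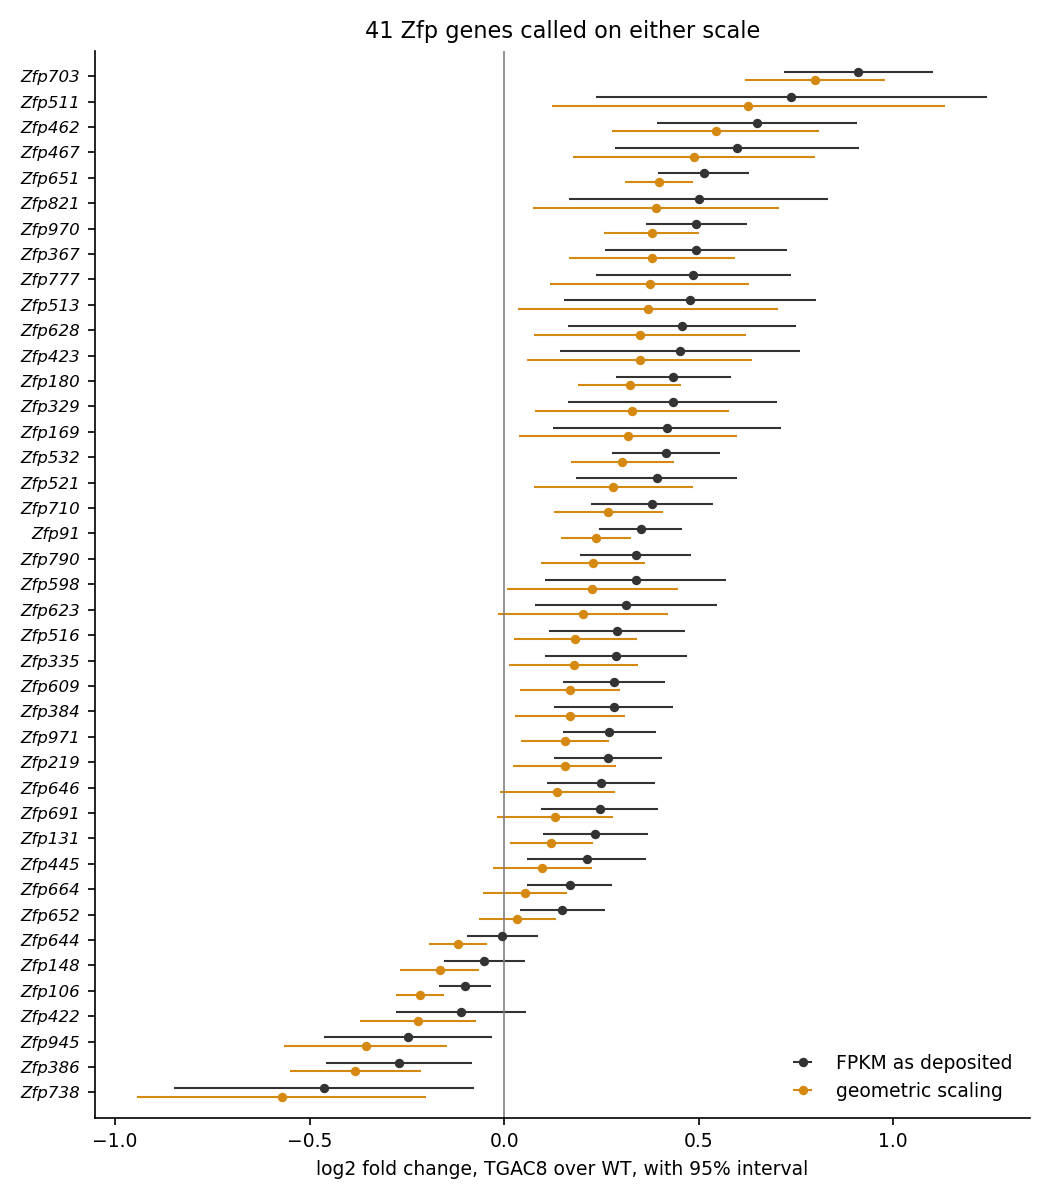
Log2 fold change, TGAC8 over WT, with 95% interval (horizontal axis) for each of the 41 Zfp members called on either scale (vertical axis), on the deposited FPKM (dark) and after geometric scaling (orange). The orange points lie to the left of the dark ones for every gene, and Zfp703 has the highest value on both scales.

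Zfp703 had the largest increase of the family. It encodes a nuclear protein of the NET family that acts as a transcriptional corepressor, and its gene lies at chr8:26977335-26981462 on mm10. Its level ran from 1.45 to 2.15 FPKM in WT, with a median of 1.86 FPKM, and from 2.78 to 4.23 FPKM in TGAC8, with a median of 3.39 FPKM. No TGAC8 library was as low as any WT library. The log2 fold change was 0.91 (SE 0.0907, limma adjusted p = 1.42e-06) and 0.80 after geometric scaling. The antisense gene Gm45371 shares 459 exon bases with Zfp703, and 9.05% of its windows of 75 bases occur in transcripts of another gene.

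Zfp651 rose at a higher level of expression. The gene, at chr9:121716534-121771742, encodes a protein with 7 fingers by sequence pattern. WT libraries held 10.7 to 12.8 FPKM with a median of 11.8 FPKM, and TGAC8 libraries 14.6 to 18.9 FPKM with a median of 16.9 FPKM. The ranges were apart, and the log2 fold change was 0.51 (SE 0.0550, limma adjusted p = 3.5e-06). After geometric scaling it was 0.40, and only 0.492% of its windows were shared with another gene.

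Zfp970 is a member of a tandem array on chromosome 2 and encodes 14 fingers. Its WT levels were close together, from 7.24 to 8 FPKM with a median of 7.71 FPKM, and its TGAC8 levels ran from 9.20 to 13.3 FPKM with a median of 10.8 FPKM. The spread between mice was wider in TGAC8, with an SD of 1.27 FPKM against 0.250 FPKM in WT. The log2 fold change was 0.49 (SE 0.0618, limma adjusted p = 1.8e-05). Its value is uncertain, because 30.4% of its windows of 75 bases occur in other genes of the array, Gm14288 and Gm14440 among them. Zfp971, in the same array with 32.8% of windows shared, also rose, by 0.27 (SE 0.0568, limma adjusted p = 0.00215).

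The genotypes were apart in 8 members, all with TGAC8 above WT, and 0 with TGAC8 below. Over all tested rows the 8 and 8 values were apart in 4.79% with TGAC8 above and in 1.13% with TGAC8 below. Besides Zfp703, Zfp651 and Zfp970 the members were Zfp180, Zfp532, Zfp710, Zfp91 and Zfp790.

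Zfp91 encodes an atypical E3 ubiquitin ligase that acts on the NF-κB inducing kinase. It had 15.9 to 17.9 FPKM in WT, with a median of 16.6 FPKM, and 19.6 to 24.7 FPKM in TGAC8, with a median of 21.0 FPKM. It rose by 0.35 on the log2 scale (SE 0.0506, limma adjusted p = 7.36e-05). Cntf lies on the same strand and shares 847 exon bases with it, and 7.91% of the windows of Zfp91 were shared with another gene.

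Zfp180 encodes 12 fingers, and no window of its transcripts occurred in another gene. It ran from 2.29 to 3.27 FPKM in WT, with a median of 2.69 FPKM, and from 3.40 to 4.10 FPKM in TGAC8, with a median of 3.58 FPKM. The lowest TGAC8 library was just above the highest WT library, and the gene rose by 0.43 on the log2 scale (SE 0.0700, limma adjusted p = 0.000216).

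Zfp532, which in human carcinomas is known as a fusion partner of NUTM1, ran from 2.50 to 3.33 FPKM in WT, with a median of 2.91 FPKM, and from 3.43 to 4.19 FPKM in TGAC8, with a median of 3.80 FPKM. Its log2 fold change was 0.42 (SE 0.0659, limma adjusted p = 0.000186). The gene AC132307.5 shares 1943 exon bases with it, and 24.2% of its windows were shared. Zfp710 ran from 2.28 to 2.95 FPKM in WT, with a median of 2.84 FPKM, and from 3.10 to 4.14 FPKM in TGAC8, with a median of 3.56 FPKM. It differed by 0.38 on the log2 scale (SE 0.0744, limma adjusted p = 0.00122).

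Among the 8, only Zfp790 matched the strict sequence pattern of a KRAB A box, and that pattern misses boxes that deviate from it. Zfp790 ran from 1.57 to 2.01 FPKM in WT, with a median of 1.82 FPKM, and from 2.12 to 2.45 FPKM in TGAC8, with a median of 2.31 FPKM. Zfp790 rose by 0.34 (SE 0.0676, limma adjusted p = 0.00145), and no window of its transcripts occurred in another gene.

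**Figure D4:**
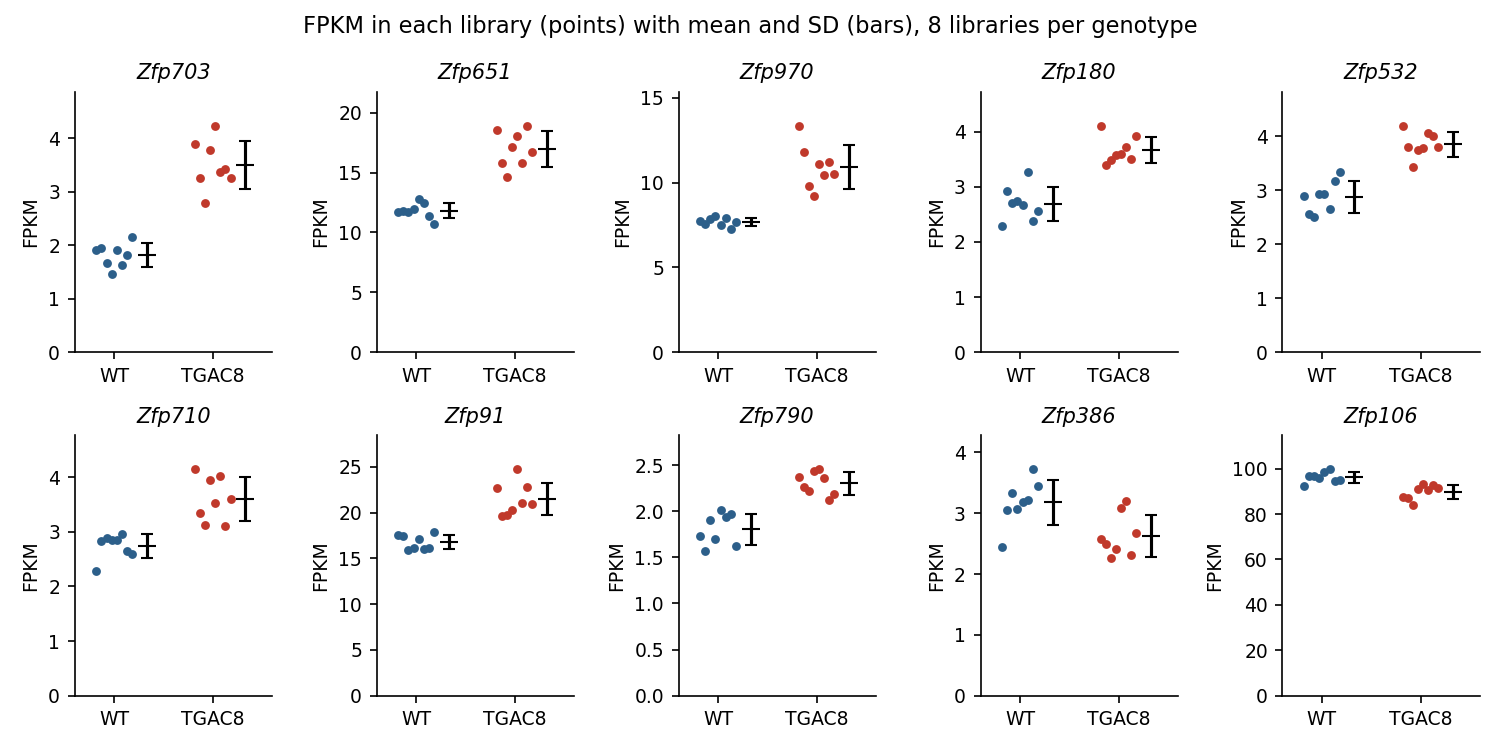
FPKM in each library (points) for WT and TGAC8, with mean and SD as bars, for the 8 Zfp members whose genotypes did not overlap and for Zfp386 and Zfp106, the 2 members that fell. Each vertical axis starts at 0. In the first 8 panels every TGAC8 point lies above every WT point, and in the last 2 panels the genotypes overlap.

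The other large increases came with overlapping values. Zfp462, a protein with 33 fingers whose human counterpart is mutated in a developmental syndrome, ran from 0.773 to 1.58 FPKM in WT, with a median of 1.01 FPKM, and from 1.43 to 2.02 FPKM in TGAC8, with a median of 1.72 FPKM. It rose by 0.65 on the log2 scale (SE 0.122, limma adjusted p = 0.000846). Zfp467, which in mouse marrow stroma favours adipocytes over osteoblasts, ran from 1.12 to 2.55 FPKM in WT and from 1.86 to 3.70 FPKM in TGAC8. Its medians were 2.02 and 2.94 FPKM, and it rose by 0.60 (SE 0.149, limma adjusted p = 0.00703).

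Among the called members Zfp511 had the second largest fold change and the largest SE on the log2 scale. It ran from 0.626 to 2.95 FPKM in WT, with a median of 1.77 FPKM, and from 1.75 to 4.34 FPKM in TGAC8, with a median of 2.85 FPKM. The difference was 0.74 (SE 0.239, limma adjusted p = 0.0309), and after geometric scaling the adjusted p was 0.0744. Tubgcp2 shares 216 exon bases with it on the opposite strand.

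Among the remaining 4 of the 10 largest increases that passed the test, Zfp367 rose by 0.49 (SE 0.111, limma adjusted p = 0.00364) and the KRAB box gene Zfp777 rose by 0.49 (SE 0.119, limma adjusted p = 0.00632). Zfp821 rose by 0.50 (SE 0.158, limma adjusted p = 0.0271). Zfp513, whose human counterpart is mutated in a form of retinitis pigmentosa, rose by 0.48 (SE 0.153, limma adjusted p = 0.0299). Zfp821 and Zfp513 were not called after geometric scaling, with adjusted p of 0.0755 and 0.112. Zfp688, Zfp13 and Zfp963 had larger log2 fold changes than several of these, 0.85, 0.57 and 0.56, but did not pass the test (limma adjusted p = 0.115, 0.0616 and 0.0706), and are named here after their values were seen. Zfp688, a KRAB box gene, ran from 0.0446 to 1.06 FPKM in WT and from 0.254 to 1.72 FPKM in TGAC8.

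Only Zfp386 and Zfp106 fell on the deposited scale. Zfp386, a KRAB box gene with 9 fingers at chr12:116047706-116063231, ran from 2.45 to 3.72 FPKM in WT, with a median of 3.20 FPKM, and from 2.26 to 3.20 FPKM in TGAC8, with a median of 2.53 FPKM. The values overlapped, and the log2 fold change was -0.27 (SE 0.0888, limma adjusted p = 0.0331). After geometric scaling it was -0.38 (adjusted p = 0.00227).

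Zfp106, at chr2:120506829-120563853, had the smallest change among the called members but the highest level. WT libraries held 92.2 to 99.7 FPKM with a median of 96.3 FPKM, and TGAC8 libraries 83.9 to 93.4 FPKM with a median of 90.8 FPKM. The log2 fold change was -0.10 (SE 0.0317, limma adjusted p = 0.0262), or -0.22 after geometric scaling (adjusted p = 3.89e-05). The lincRNA Gm26899 shares 2719 exon bases with Zfp106 on the opposite strand, and 23.9% of its windows were shared.

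Members with well known roles were named by a list of 19 genes, of which 17 were tested. Zfp57 and Zfp593 were not analysed here. The rest are described by role, apart from those already given.

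Among regulators of cell identity, Zfp521, a cofactor that opposes the transcription factor EBF1 in blood and fat precursors, ran from 1.52 to 2.34 FPKM in WT and from 2.02 to 3.35 FPKM in TGAC8. It rose by 0.39 (SE 0.0987, limma adjusted p = 0.00778). Zfp423, a regulator of preadipocyte commitment with 27 fingers like Zfp521, was much lower, from 0.435 to 0.824 FPKM in WT and from 0.673 to 1.28 FPKM in TGAC8. It rose by 0.45 (SE 0.146, limma adjusted p = 0.0315), and was not called after geometric scaling (adjusted p = 0.0831). Zfp281, a factor of embryonic stem cells, had medians of 2.34 FPKM in WT and 2.24 FPKM in TGAC8, and its log2 fold change was 0.032 with a 95% interval from -0.15 to 0.21.

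Zfp260 is known in rodent cardiac myocytes as an effector of α1-adrenergic signaling and a cofactor of GATA4. It ran from 4.12 to 5.96 FPKM in WT, with a median of 5.02 FPKM, and from 4.07 to 6.65 FPKM in TGAC8, with a median of 5.37 FPKM. The log2 fold change was 0.12, with a 95% interval from -0.077 to 0.32 (limma adjusted p = 0.363). The genotypes overlapped almost fully.

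Of the general transcription regulators, Zfp335, a component of histone H3K4 methyltransferase complexes, rose by 0.29 (SE 0.0866, limma adjusted p = 0.0211), from a median of 1.69 FPKM in WT to 2.08 FPKM in TGAC8. It was not called after geometric scaling (adjusted p = 0.126), and 14.5% of its windows were shared, mostly with Pcif1. Zfp143, an activator that binds many promoters, had a log2 fold change of 0.17 with a 95% interval from -0.073 to 0.40. Zfp148, which binds GC-rich promoters, had -0.051 on the deposited scale (limma adjusted p = 0.472) and -0.17 after geometric scaling (adjusted p = 0.0201). Zfp652, a repressor that works with the corepressor CBFA2T3 in human cells, rose by 0.15 (SE 0.0517, limma adjusted p = 0.0421) and had 0.034 after geometric scaling (adjusted p = 0.666). Phospho1 shares 1818 exon bases with Zfp652 on the same strand, and Abi3 shares 2913 on the opposite strand. Of the windows of Zfp652, 17.4% were shared.

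Among members that act outside transcription, Zfp598, the ubiquitin ligase that marks collided ribosomes, ran from 1.68 to 2.63 FPKM in WT and from 2.16 to 3.97 FPKM in TGAC8. It rose by 0.34 (SE 0.110, limma adjusted p = 0.0320), and was not called after geometric scaling (adjusted p = 0.139). Zfp622, a factor of large ribosomal subunit maturation, had a log2 fold change of 0.019 with a 95% interval from -0.16 to 0.19. Zfp207, a spindle and kinetochore protein, had 0.17 (limma adjusted p = 0.124). Zfp451, a SUMO ligase, had 0.13 (limma adjusted p = 0.501).

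Zfp36, tristetraprolin, has CCCH fingers and speeds the decay of AU-rich mRNAs. It ran from 3.54 to 5.20 FPKM in WT, with a median of 4.51 FPKM, and from 3.44 to 6.33 FPKM in TGAC8, with a median of 4.41 FPKM. The log2 fold change was 0.066, with a 95% interval from -0.17 to 0.30 (limma adjusted p = 0.701). Zfp36 belongs to a list of 20 immediate early genes, of which 17 were tested. Of these Junb, Nr4a1 and Socs3 rose, by 0.47, 1.32 and 0.57, and Cyr61 fell by 0.87, while Zfp36 was not called. This was 17.6% higher and 5.88% lower, beside 20.9% and 4.65% of all tested rows. The median log2 fold change of the list was 0.32, or 0.20 after geometric scaling, beside 0.12 and 0.0079 over all tested rows. Socs3 was not called after geometric scaling (adjusted p = 0.061).

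Of the KRAB box members with a known target, Zfp809, which silences murine leukemia virus in mouse embryonic cells, ran from 5.78 to 7.68 FPKM in WT and from 5.82 to 8.90 FPKM in TGAC8. Its log2 fold change was 0.057 with a 95% interval from -0.13 to 0.24. Zfp568, which represses a placental Igf2 transcript in mice, had 0.16 with a 95% interval from -0.048 to 0.36. Zfp445, which protects imprints in mouse embryos, was chosen after its values were seen and rose by 0.21 (SE 0.0727, limma adjusted p = 0.0400). It was not called after geometric scaling (adjusted p = 0.284).

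The other members that rose, Zfp628, Zfp329, Zfp169, Zfp623, Zfp516, Zfp609, Zfp384, Zfp219, Zfp646, Zfp691, Zfp131 and Zfp664, differed by 0.17 to 0.46 on the log2 scale, and none of these 12 was called after geometric scaling. Zfp738 had the lowest log2 fold change of the family, -0.46 (SE 0.183, limma adjusted p = 0.0721). It ran from 1.03 to 2.64 FPKM in WT and from 0.814 to 1.59 FPKM in TGAC8, and after geometric scaling its adjusted p was 0.0279.

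Few members with a KRAB box passed the test, and their median level was low. A KRAB A box by strict sequence pattern was found in 69 members, all tested, of which 4 rose and 1 fell. These are 5.80% and 1.45% of 69, against 20.9% and 4.65% of all tested rows. Of the 160 tested members without the pattern, 30 rose and 1 fell, or 18.8% and 0.625%. On the geometric scale the box members had 2 higher and 2 lower (2.9% each), and the others 12 higher and 5 lower (7.5% and 3.12%), beside 9.78% and 10.7% of all tested rows. The median log2 fold change was 0.092 with the box and 0.12 without it, and after geometric scaling -0.014 and 0.01. The median level was 1.12 FPKM with the box and 2.07 FPKM without it. The difference between the groups was not tested, and the pattern misses boxes that deviate from it. For 1 tested member no complete coding sequence was matched.

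The share of members called varied with their level. Between 0.5 and 1 FPKM, 3 of 59 members rose, or 5.08%, against 11.8% of all rows at that level. Between 1 and 2 FPKM it was 7 of 70, or 10%, against 15.6%. Between 2 and 5 FPKM it was 15 of 76, or 19.7%, against 23.0%, and at 5 FPKM or more it was 9 of 25, or 36.0%, against 24.2%. After geometric scaling 1, 9 and 4 members of the upper 3 bins were higher. These are 1.43%, 11.8% and 16%, against 8.22%, 10.5% and 10.9% of all rows. In those bins 2, 2 and 3 members were lower, or 2.86%, 2.63% and 12%, against 4.01%, 5.54% and 18.7% of all rows. From the lowest bin to the highest, the median SE of the log2 fold change fell from 0.155 to 0.128, 0.0907 and 0.0711 in the members. The median log2 fold change was 0.16, 0.099, 0.11 and 0.13 in the members. In all rows of those bins it was 0.18, 0.15, 0.15 and 0.083. After geometric scaling the medians were 0.054, -0.0097, -0.0032 and 0.017 in the members, and 0.077, 0.047, 0.034 and -0.032 in all rows. These differences were not tested.

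By number of fingers the shares were closer to each other. Of members with 10 or more fingers 18 of 125 rose, of those with 5 to 9 fingers 10 of 66, and of those with 1 to 4 fingers 5 of 32. These are 14.4%, 15.2% and 15.6%, beside 20.9% of all tested rows. After geometric scaling 9, 3 and 1 of them were higher, or 7.2%, 4.55% and 3.12%, beside 9.78% of all tested rows. By the strict C2H2 pattern 7 members had no finger, among them Zfp36 and Zfp703. A SCAN box, a dimerization domain, was found in 9 members, of which 1 rose and lost its call after geometric scaling.

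The Zfp genes were unevenly spread over the genome. Chromosome 7 held 55 of the 232 members, of which 7 rose, chromosome 17 held 27, of which 1 rose, chromosome 8 held 19 and chromosome 13 held 17. Clusters were taken as at least 3 member rows with gaps of at most 500 kb between neighbours, and 18 clusters held 106 members. Of the 105 tested members in clusters 9 rose, and of the 125 tested members outside clusters 25 rose and 2 fell. That is 8.57% and 20% higher, beside 20.9% of all tested rows. After geometric scaling the shares were close to each other, with 6 higher and 2 lower in clusters (5.71% and 1.9%) and 8 higher and 5 lower outside (6.4% and 4%), beside 9.78% and 10.7% of all tested rows. Clustered members had a median level of 1.39 FPKM and the others 2.17 FPKM.

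The clusters on chromosome 17, at chr17:21008903-23599487 and chr17:32765496-33631779, held 24 members between them, and limma called 0 of the 24 in either direction. At an unadjusted p under 0.05, Zfp942 and Zfp13 were higher and Zfp945 was lower, and both the rank-sum test and the fit after geometric scaling called 0 higher and 1 lower. Over all tested rows limma called 20.9% higher and 4.65% lower, or 9.78% and 10.7% after geometric scaling. The share of all rows for the rank-sum test is not given here. The cluster at chr13:67069399-67729173 had a median log2 fold change of -0.087 over 7 members, of which limma called 0, with 1 lower at an unadjusted p under 0.05, 0 called by the rank-sum test and 1 lower after geometric scaling, Zfp738. No other cluster had a median below 0 on the deposited scale. The array at chr2:177464733-178078476, which holds Zfp970 and Zfp971, had a median of 0.27 over 3 tested members.

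**Figure D5:**
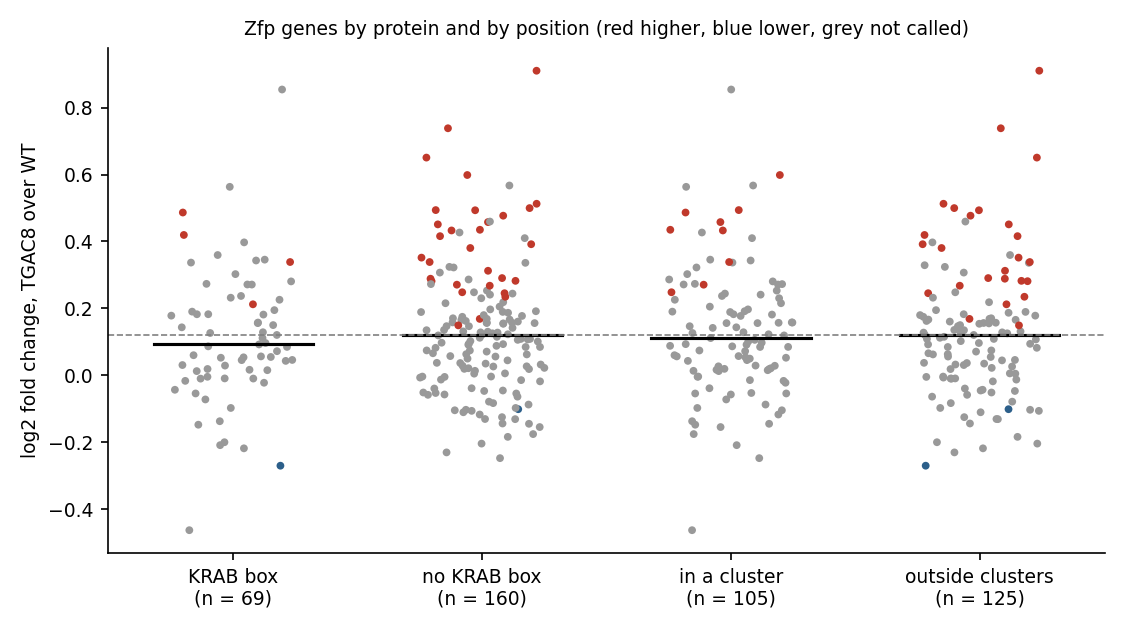
Log2 fold change, TGAC8 over WT (vertical axis), of each tested Zfp member, grouped by KRAB box (69 with, 160 without) and by position (105 in clusters, 125 outside), with called members in red (higher) and blue (lower) and the group median as a black bar. The dashed line is the median of all tested rows, 0.12, and the medians of the groups lie between 0.092 and 0.12.

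Related zinc finger genes outside the Zfp symbols were set beside the family. Of 244 tested rows with a C2H2 finger and another symbol, 49 rose and 2 fell, or 20.1% and 0.82%, beside 20.9% and 4.65% of all tested rows, with a median log2 fold change of 0.15 and a median level of 2.65 FPKM. After geometric scaling 17 were higher and 10 lower, or 6.97% and 4.1%, beside 9.78% and 10.7%. Of 33 Zbtb genes, which carry a BTB domain, 4 rose, with a median of 0.19, and 1 was higher after geometric scaling. Of 12 Klf genes 1 rose, with a median of 0.084 that became -0.024 after geometric scaling, where 3 were lower and Klf genes no longer passed as higher. Of 14 Zc3h genes, which have CCCH fingers, 4 rose, with a median of 0.15, and after geometric scaling 1 was higher and 1 lower. Of 11 rows with a KRAB box and another symbol, 1 fell, and it was the only one at an unadjusted p under 0.05. None of these groups was tested against the Zfp members.

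KRAB zinc finger proteins need partners to silence chromatin, and a list of 21 partner genes had 19 tested members. Of these 4 rose, or 21.1%, beside 20.9% of all tested rows. Limma called 0 lower, beside 4.65% of all tested rows. At an unadjusted p under 0.05 there were 0 lower, and 0 by the rank-sum test. After geometric scaling 2 were higher, or 10.5%, beside 9.78% of all tested rows. The 19 partner genes had a median log2 fold change of 0.12, the same as over all tested rows. Trim28, the scaffold that KRAB boxes bind, ran from 5.03 to 6.63 FPKM in WT and from 5.46 to 7.11 FPKM in TGAC8, and its log2 fold change was 0.15 (SE 0.0704, limma adjusted p = 0.122). Setdb1, the H3K9 methyltransferase recruited by it, had 0.12 (limma adjusted p = 0.395).

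The partner genes that rose were Chd3, Atrx, Dnmt1 and Cbx5. Chd3, an ATPase of the NuRD complex, ran from 1.87 to 2.70 FPKM in WT, with a median of 2.34 FPKM, and from 3.21 to 4.97 FPKM in TGAC8, with a median of 4.50 FPKM. It rose by 0.91 (SE 0.0897, limma adjusted p = 1.37e-06). Atrx, a remodeler that places histone H3.3 in heterochromatin, ran from 13.7 to 16 FPKM in WT and from 17.7 to 19.4 FPKM in TGAC8, and rose by 0.35 (SE 0.0387, limma adjusted p = 5.43e-06). In both genes the genotypes were apart. Dnmt1, the maintenance DNA methyltransferase, rose by 0.32 (limma adjusted p = 0.00873) and Cbx5, which encodes the heterochromatin protein HP1α, by 0.22 (limma adjusted p = 0.0312). Neither was called after geometric scaling, with adjusted p of 0.0778 and 0.214.

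Because adenylyl cyclase makes cAMP, promoters of the members were searched for the cAMP response element TGACGTCA, which reads the same on both strands. RefSeq promoter windows on GRCm38.p6, from 250 bases before to 50 bases after a start, were at hand for 192 members, 190 of them tested. The element was in 7 of the 190, or 3.68%, in 3.65% of 8649 tested rows with a window, and in 2.03% of 27025 genes. Of these 7 members Zfp367 and Zfp335 rose, and the element with 20 bases on each side is shown for them in the direction of transcription, with the element in capitals.
Zfp367 (chr13:64152451-64152498, minus strand): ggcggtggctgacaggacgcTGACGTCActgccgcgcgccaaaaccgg
Zfp335 (chr2:164911789-164911836, minus strand): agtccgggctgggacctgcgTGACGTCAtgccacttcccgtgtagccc

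A match describes the letters only. The stretch shown for Zfp367 lies inside the GENCODE gene, which on the minus strand begins at chr13:64153202. Among the 183 tested members with a window and no element, 24 rose and 2 fell. Of all tested rows with a window, 22.2% with the element and 21.3% without it were higher. After geometric scaling 1 of the 7 members with the element and 9 of the 183 without it were higher, beside 9.81% and 9.92% of all such rows. The log2 fold changes of the other 5 members with the element ran from -0.039 to 0.11.

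Human ADCY8 ran from 411 to 602 FPKM in TGAC8 and from 0 to 0.345 FPKM in WT, so the genotype labels matched the transgene in all 16 libraries. The cardiomyocyte markers were abundant in both genotypes, with a summed level of 24802 to 30003 FPKM in TGAC8 and 30426 to 32960 FPKM in WT, and 1 of 10 rose and 4 fell, with 1 higher and 7 lower after geometric scaling. Of the fibroblast markers 11 of 12 rose, with a summed level of 421 to 681 FPKM in TGAC8 and 346 to 390 FPKM in WT. Of the macrophage markers 10 of 12 rose, or 8 after geometric scaling, with 149 to 216 FPKM against 109 to 148 FPKM. Of 9 smooth muscle and pericyte markers 2 rose. The shares higher were 10% for cardiomyocyte, 91.7% for fibroblast, 83.3% for macrophage and 22.2% for smooth muscle and pericyte markers. The share lower was 40% for cardiomyocyte markers. Of all tested rows 20.9% were higher and 4.65% lower, or 9.78% and 10.7% after geometric scaling. The 10 endothelial markers had a median log2 fold change of 0.055 and a summed level of 145 to 191 FPKM in TGAC8 and 156 to 177 FPKM in WT. Of the lymphocyte, adipocyte and Schwann cell lists 1 of 7, 2 of 6 and 2 of 5 genes were in the table, and 1 Schwann cell marker rose and lost its call after geometric scaling. No marker in the table was at 0 in every library. The part of these cell types in the increases of Zfp703, Zfp462, Zfp467, Zfp521, Zfp423 and the other members was not tested. In bulk tissue fewer cells of a type and less RNA per cell cannot be told apart.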

How the data were processed

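LV RNA of 8 TGAC8 and 8 WT mice was converted to libraries with the SMARTer Stranded Total RNA-Seq Pico kit and sequenced as 75 base single end reads. The authors aligned trimmed reads with TopHat to mm10 joined to human AC8 cDNA (the submitters' processing notes name TopHat2 2.1.1) and computed the deposited FPKM with Cufflinks 2.1.1. The sources used here do not give the annotation or say whether counting used strand. The deposited table also holds the authors' Cuffdiff group means, log2 fold changes, test statistics, p-values and q-values, which were not used. Low FPKM values were not whole multiples of a common step, and the paper gives reads per library only as a range. The number of fragments behind each value is therefore unknown, and precision rests on the variation among mice.

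Libraries were grouped by the genotype in the labels. Rows with a mean of at least 0.5 FPKM were compared on log2(FPKM + 0.1), 2-sided, by limma 3.58.1 (R 4.3.3, variance trend), with Benjamini-Hochberg adjustment over 11544 rows at 0.05. For genes near the pseudocount these fold changes are understated. The procedure was tested on simulated data. Members were rows whose symbol is Zfp followed by digits only. Named members were called members among the 10 largest increases and the 10 largest decreases, members whose genotypes did not overlap, the 5 highest by level and a list of 19 with known roles. Members, lists and tests were chosen with earlier results of these data known.

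All 232 members matched a GENCODE vM21 symbol and 231 a complete coding sequence. Fingers (C-x(2,4)-C-x(12)-H-x(3,5)-H), the KRAB A box (F-x-D-V-x(3)-F-[ST]-x(2)-E-W), the SCAN box (LVLEQFL) and the TGEKP linker were counted in the translation of the longest one. RefSeq proteins had been planned and were not used here. The authors' locus lay within 5 kb of the GENCODE gene at both ends for 171 members.

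Alternatives were pseudocounts of 1 and 0.01, no filter on low values, a filter at 1 FPKM, geometric scaling, quantile normalization, an exact rank-sum test, the library number as a block, that block with geometric scaling, and each library left out.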

Additional observations from a re-analysis of the deposited data

Results flagged for a closer look

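In groups of 8 libraries, the named genes were searched for a library far from the others of its genotype, by its gap to the nearest one over the whole range of the group. Of 76 such groups 2 held one, and chance gives about 1 in 20. Zfp451 was at 5.86 FPKM in TGAC8 replicate 5, and the next highest TGAC8 library was at 3.87 FPKM. Chd3 was at 3.21 FPKM in TGAC8 replicate 4, its lowest TGAC8 value, and the next was at 4.19 FPKM, all above the highest WT library.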

How the results depend on the processing

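The deposited FPKM carry no fragment numbers, and the scale between libraries decided most calls. The number of members higher was 34 as deposited, 14 with geometric scaling, 10 with quantile normalization (where 9.16% of all tested rows were higher and 9.14% lower), 12 with the replicate block and geometric scaling together, and 28 (without TGAC8 replicate 5) to 39 (without TGAC8 replicate 3) when each library was left out. The number lower was 2, 7 with geometric scaling, 8 with quantile normalization, 0 with the replicate block, and 1 to 2 with a library left out. The single remaining decrease in those fits arose without TGAC8 replicate 1, 3, 4 or 7 or WT replicate 6 or 7. Of all tested rows 20.9% were higher and 4.65% lower as deposited, and 9.78% and 10.7% with geometric scaling. For the block with geometric scaling and for the fits with a library left out, the shares of all rows are not given here. The family shift was -0.0028, -0.041 with quantile normalization and -0.02 to 0.013 with a library left out. Only the shift with quantile normalization differed from -0.0028 by more than 0.0282, the pooled SD of the per-library difference within genotypes. Of the partner genes 4 were higher, 2 with geometric scaling with or without the block, and 3 to 5 with a library left out, with 0 lower throughout.

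The library numbers did not pair the samples: correlations of same-numbered libraries ran from -0.0617 to 0.00672. With the replicate block 25 members were higher and 0 lower, against 17.5% and 3.7% of all tested rows. Zfp106, Zfp335, Zfp386, Zfp423, Zfp598, Zfp652 and Cbx5 lost their calls there. The rank-sum test lost Zfp386, Zfp511, Zfp513 and Cbx5. Geometric scaling lost Zfp335, Zfp423, Zfp511, Zfp513, Zfp598, Zfp652, Zfp821, Dnmt1 and Cbx5. With the block added Zfp521 and Zfp790 were also lost, and Zfp511 was not. Quantile normalization lost the same genes as geometric scaling except Cbx5, and also Zfp106 (adjusted p 0.185), Zfp777 (0.0624), Zfp790 (0.0664) and Zfp521 (0.122). Leaving out a library ended, at least once, the calls of Zfp106, Zfp386, Zfp423, Zfp511, Zfp513, Zfp598, Zfp652, Zfp821 and Cbx5. The pseudocounts and the filters changed no call of the named genes that were tested. The filter at 1 FPKM left Zfp423, with a mean of 0.796 FPKM, untested.

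Directions turned for some members that were not called. With geometric scaling, with or without the block, log2 fold changes were -0.047 for Zfp36, -0.079 for Zfp281, -0.094 for Zfp622 and -0.058 for Zfp809. With quantile normalization they were -0.065 for Zfp36, -3.2e-05 for Zfp143, -0.0025 for Zfp260, -0.13 for Zfp281, -0.023 for Zfp451, -0.0038 for Zfp568, -0.12 for Zfp622, -0.069 for Zfp809 and -0.045 for Setdb1. With a library left out Zfp622 ran from -0.0085 to 0.062, and it was below 0 (-0.00036, -0.0057, -0.0081 and -0.0085) without TGAC8 replicate 4 or 6 or WT replicate 4 or 6. The cause was not tested.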
